A study of Homo sapiens with 18 samples.

Results

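MPS1 is the protein kinase encoded by TTK, which starts the spindle assembly checkpoint, the signal that holds a dividing cell before anaphase until every chromosome is attached to the spindle. It is recruited to kinetochores that lack microtubules, where it phosphorylates the scaffold to which the BUB and MAD proteins bind. TTK belongs to the genes that are transcribed late in the cell cycle, together with cyclin B, PLK1 and many motors of the spindle.

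Gene expression was compared between U251 cells, an established human glioblastoma line, given a short interfering RNA against MPS1 (siMPS1) and 2 kinds of control cells. One control received a negative-control RNA (siNeg), and the other was untransfected (Control). The 6 arrays titled siMPS1 were set against the 12 titled siNeg or Control, out of 18 in the series, each measuring total RNA from whole cells on an Affymetrix human array. Cells were taken 6, 24 and 48 h after transfection, with 2 arrays for each treatment at each time, which gave 9 groups: siMPS1, siNeg and Control at each of the 3 times. The transfection used 2 pmol of RNA, per the labels. The sources used here do not give the sequence of either RNA, nor whether 1 or several were directed at MPS1. No label says that the 2 replicates of a group were grown as separate cultures, so the p-values measure only the spread between these arrays, which may be technical. In a bulk measurement, fewer cells of a kind (fewer cells in mitosis, for example) and less RNA per cell cannot be told apart.

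Values are given as log2(signal + 3), where the signal is the array's summary intensity of a probe set after the submitters' scaling. Differences are siMPS1 minus the controls on this scale, which understates the change of dim genes. A gene was called where limma's moderated test gave a Benjamini-Hochberg adjusted p under 0.05 among the 7828 genes tested. A gene was said to hold where it was called, in the same direction, in all 6 comparisons, that is against siNeg and against Control at 6, 24 and 48 h. These comparisons share arrays: the same 2 siMPS1 arrays serve both comparisons of a time.

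TTK, the silenced gene, was lower in the siMPS1 arrays at every time. At 6 h it read 4.07 and 4.27 in siMPS1 cells, against 5.48 and 5.71 in siNeg cells and 5.34 and 5.72 in Control cells. At 24 h it read 5.23 and 4.74 in siMPS1 cells, against 6.86 and 6.89 in siNeg cells and 7.13 and 6.81 in Control cells. At 48 h it read 4.78 and 4.26 in siMPS1 cells, against 6.72 and 6.92 in siNeg cells and 6.57 and 6.91 in Control cells. The highest siMPS1 array of all times, at 5.23, lay below the lowest of the 12 control arrays, at 5.34. Averaged over the times, TTK differed by -1.86 (SE 0.103, adjusted p = 3.78e-10), which is 27.5% of the controls in signal plus 3. The fall was -1.40 at 6 h, -1.93 at 24 h and -2.26 at 48 h, and these differed over the times (F test, adjusted p = 0.0396).

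Few genes held. TTK was 1 of 37 genes that were lower in siMPS1 cells in all 6 comparisons, which is 0.473% of the genes tested, and 3 genes were higher in all 6, which is 0.0383%. The 37 averaged between -1.86 and -0.37, with a median of -0.75, and the 3 rose by 0.32 to 0.41. By the count of comparisons, 50 genes were called lower and 13 higher in exactly 5, and 124 lower and 108 higher in exactly 4. At the looser end, 1074 genes were called lower and 1450 higher in exactly 1. These averages use the same arrays as the 6 comparisons that chose the genes, so they and their p-values describe the genes and are no further support. In each of the 40 genes that held, both siMPS1 arrays lay beyond all 4 control arrays at each time. That separation is in the arrays that chose the genes, so it is no further support either. Over all genes, with no test asked for, 163 (2.08%) lay below and 92 (1.18%) lay above all 4 control arrays at each time. The number that held was smaller without single 6 h arrays: 19 genes were lower without replicate 2 of siMPS1 at 6 h, 20 without replicate 1 of siNeg at 6 h and 21 without replicate 2 of siNeg at 6 h. The 3 rises became 0 without replicate 2 of siMPS1 at 6 or 24 h, replicate 1 of siNeg at 6 h or replicate 2 of Control at 6 h, and 1 without replicate 2 of siNeg at 6 h or replicate 1 of siNeg or Control at 24 h. No gene was called higher in all 6 after centring each array on its median.

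**Figure D1:**
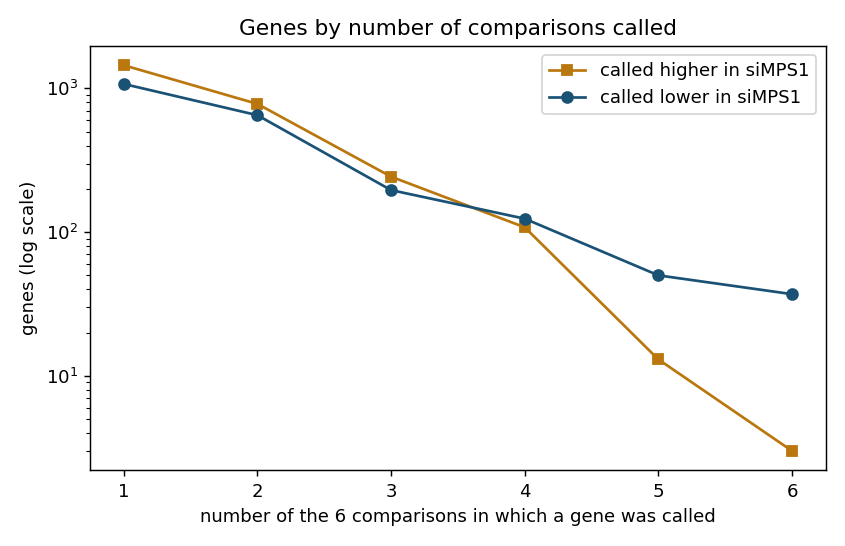
Genes (vertical axis, log scale) by the number of the 6 comparisons in which they were called (horizontal axis), with squares for genes higher and circles for genes lower in siMPS1 arrays. The 2 lines lie close up to 4 comparisons, and at 6 comparisons 37 genes are lower and 3 higher.

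ADORA2B and IL6ST, which encode an adenosine receptor and the signalling chain shared by interleukin-6 family receptors, were the surface receptors among the 15 largest falls that held. ADORA2B read 7.29 and 7.20 in siMPS1 cells at 6 h, where the 4 control arrays all lay higher. At 24 h it read 7.20 and 7.24 in siMPS1 cells, against 8.59 and 8.52 in siNeg cells and 8.35 and 8.51 in Control cells. At 48 h it read 6.36 and 6.58 in siMPS1 cells, against 8.16 and 8.30 in siNeg cells and 8.22 and 8.21 in Control cells. The distance between the siMPS1 and control arrays was thus wider at 48 h, with differences of -0.90 at 6 h, -1.27 at 24 h and -1.75 at 48 h (F test, adjusted p = 0.00021), and an average of -1.31 (SE 0.0476). IL6ST averaged -0.85 and CD46, a membrane inhibitor of complement, averaged -0.84. CD46 read 7.52 and 7.57 in siMPS1 cells at 48 h, against 8.33 and 8.49 in siNeg cells and 8.81 and 8.65 in Control cells. Against the mean of both controls the fall was larger at 48 h than at 6 h, by 0.40 for IL6ST and by 0.42 for CD46 in log2 units. The controls differed for IL6ST, where siNeg lay 0.21 below Control on average (adjusted p = 0.0127): against siNeg it differed by -0.53, -0.95 and -0.76 at 6, 24 and 48 h, and against Control by -0.68, -0.94 and -1.25. CD46 differed by -0.87 against siNeg and -1.18 against Control at 48 h.

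MSMO1, a sterol oxidase of cholesterol synthesis, read 6.94 and 6.92 in siMPS1 cells at 6 h, against 8.33 and 8.19 in siNeg cells and 8.27 and 8.13 in Control cells. At 24 h it read 7.17 and 7.28 in siMPS1 cells, against 8.62 and 8.64 in siNeg cells and 8.58 and 8.65 in Control cells, and at 48 h 7.66 and 7.66 in siMPS1 cells, against 8.52 and 8.63 in siNeg cells and 8.74 and 8.83 in Control cells. Its average of -1.24 (SE 0.0379, adjusted p = 1.38e-13) was made up of differences of -1.30, -1.39 and -1.02 at the 3 times, the smallest at 48 h. SOAT1, which esterifies cholesterol in the endoplasmic reticulum, averaged -0.89, and ETNK1, an ethanolamine kinase of phospholipid synthesis, averaged -0.97. VAPA, a tether of the endoplasmic reticulum to other membranes, averaged -0.96 and fell more at 24 h (-1.25) than at 6 h (-0.59). CHMP2B, a subunit of the ESCRT-III complex that closes membrane necks, read 7.63, 7.39, 7.51, 7.24, 7.65 and 7.45 in the 6 siMPS1 arrays in order of time. It ranged between 8.31 and 8.75 in the 12 control arrays. Its differences were -1.14, -1.19 and -1.03 at 6, 24 and 48 h.

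SEPTIN10, a GTP-binding filament protein, averaged -1.17, with 7.10 and 7.03 in siMPS1 cells at 48 h, against 8.44 and 8.72 in siNeg cells and 8.69 and 8.50 in Control cells. JPT1, a microtubule-associated protein, read 8.12 and 8.20 in siMPS1 cells at 24 h, against 9.60 and 9.59 in siNeg cells and 9.50 and 9.48 in Control cells. JPT1 fell by 1.08 on average (SE 0.0323, adjusted p = 1.38e-13), less at 6 h (-0.63) than at 24 h (-1.38) or 48 h (-1.23). CCNE2, the cyclin E2 of the entry into S phase, read 5.91 and 5.73 in siMPS1 cells at 48 h, against 7.03 and 7.17 in siNeg cells and 7.29 and 7.04 in Control cells. Its average was -1.01, with the smallest fall at 24 h (-0.70). NIPSNAP2, a mitochondrial protein, averaged -1.03, DCPH1 (also listed as ARMT1) averaged -0.90, and MOSPD1, a membrane protein, averaged -0.86.

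The promoters of JPT1 and MSMO1, with large falls that held, are shown for comparison with those of mitotic genes given further on. Each runs from 250 bases before to 50 after the RefSeq start on GRCh38.p14, on the gene's own strand, at chr17:75154463-75154762 (minus strand) for JPT1 and chr4:165327419-165327718 (plus strand) for MSMO1. Capitals mark CCAAT, read on either strand (ATTGG on the other), and the letters TTTGAA or TTCGAA of the cell cycle homology region (CHR), an element of late cell cycle promoters.
JPT1: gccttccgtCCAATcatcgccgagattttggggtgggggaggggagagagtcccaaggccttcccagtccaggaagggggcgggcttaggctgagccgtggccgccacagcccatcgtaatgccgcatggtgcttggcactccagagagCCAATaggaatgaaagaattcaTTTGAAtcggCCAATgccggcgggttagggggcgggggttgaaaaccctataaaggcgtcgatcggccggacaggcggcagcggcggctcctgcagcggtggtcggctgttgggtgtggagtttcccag
MSMO1: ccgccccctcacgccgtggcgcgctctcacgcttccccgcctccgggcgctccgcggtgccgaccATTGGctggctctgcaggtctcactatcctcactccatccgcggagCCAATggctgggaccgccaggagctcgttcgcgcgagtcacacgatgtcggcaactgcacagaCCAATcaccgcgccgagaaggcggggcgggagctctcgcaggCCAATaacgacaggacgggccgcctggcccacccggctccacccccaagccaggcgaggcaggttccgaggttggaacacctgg
The JPT1 window held 3 CCAAT matches and 1 CHR match, whose first base lay 79 bases before the start. The MSMO1 window held 4 CCAAT matches and 0 CHR matches. These are matches of letters and were not tested for binding.

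**Figure D2:**
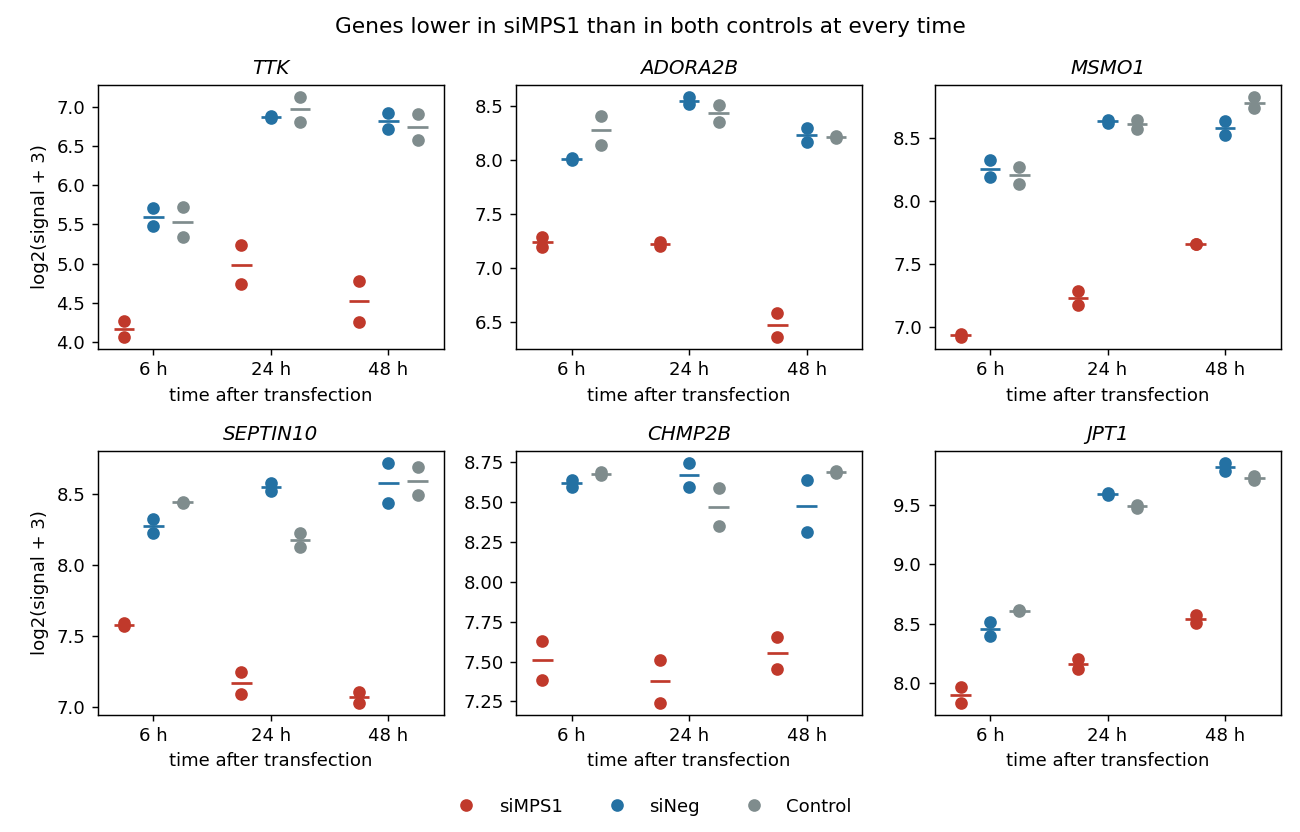
Values of TTK, ADORA2B, MSMO1, SEPTIN10, CHMP2B and JPT1, as log2(signal + 3) on the vertical axis against time in h, with 1 point per array (siMPS1, siNeg and Control) and a line at each mean. In every panel the 2 siMPS1 arrays lie below the 4 control arrays at each time.

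The other 22 genes that held fell by 0.37 to 0.81 on average, to between 57.2% and 77.3% of the controls in signal plus 3. They included regulators of transcription and RNA: MYBL1, ZBTB18, the general factor GTF2B, the RNA polymerase III subunit POLR3B, the splicing factor SRSF3, the decapping factor LSM1 and the snoRNP assembly factor ZNHIT6. SRSF3 read 10.08 and 10.05 in siMPS1 cells at 6 h, against 10.57 and 10.59 in siNeg cells and 10.56 and 10.63 in Control cells, and it differed by -0.52, -0.51 and -0.43 at the 3 times. Mitochondrial and peroxisomal proteins were DAP3 of the mitochondrial ribosome (-0.81), the carrier SLC25A13 (-0.77), LYRM2 (-0.58) and the peroxisomal transporter ABCD3 (-0.40). Ubiquitin and signalling enzymes were the ligase SMURF2 (-0.75), the kinase CHUK of the NF-kB pathway (-0.69) and the deubiquitinases USP8 (-0.39) and OTUD4 (-0.37). Cell surface and cytoskeletal members were the cadherin CDH11 (-0.76), CD164 (-0.58) and the actin capping subunit CAPZA2 (-0.39). The rest were DDAH1, RCBTB1, GPD1L and ITPRID2, at -0.70, -0.70, -0.65 and -0.55. In 18 repeats with 1 array left out, SLC25A13 held in 3, GPD1L in 6, CHUK in 7 and RCBTB1 in 8. GTF2B, USP8 and OTUD4 held in 9, DAP3, SMURF2 and SRSF3 in all 18, and the others of the 22 in 10 to 17.

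The 3 genes that rose in all 6 comparisons changed by less. PNRC2, a cofactor of mRNA decay, read 9.42 and 9.46 in siMPS1 cells at 24 h, against 8.89 and 8.94 in siNeg cells and 8.89 and 8.98 in Control cells, and averaged 0.41 (SE 0.0364). S100A2, a calcium-binding protein, averaged 0.37 and read 10.85 and 10.86 in siMPS1 cells at 48 h, against 10.15 and 10.15 in siNeg cells and 10.47 and 10.56 in Control cells. TUBA4A, an alpha tubulin, averaged 0.32 and differed by 0.31, 0.30 and 0.34 at the 3 times. Against a single control, their largest differences were 0.70 for S100A2 (siNeg, 48 h), 0.53 for PNRC2 (Control, 48 h) and 0.39 for TUBA4A (siNeg, 48 h).

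Membership turned on the largest of the 6 adjusted p-values. Just inside the threshold were GPD1L (0.0419), RCBTB1 (0.0425) and SLC25A13 (0.0478) among the falls, and PNRC2 (0.0483) among the rises. Just outside were CCT6A (0.0581), PSAT1 (0.0617) and DNAJC9 (0.0619) among the falls, and SFPQ (0.0536), TAF15 (0.0548) and AOPEP (0.0662) among the rises. These genes are named for their place at the threshold.

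**Figure D3:**
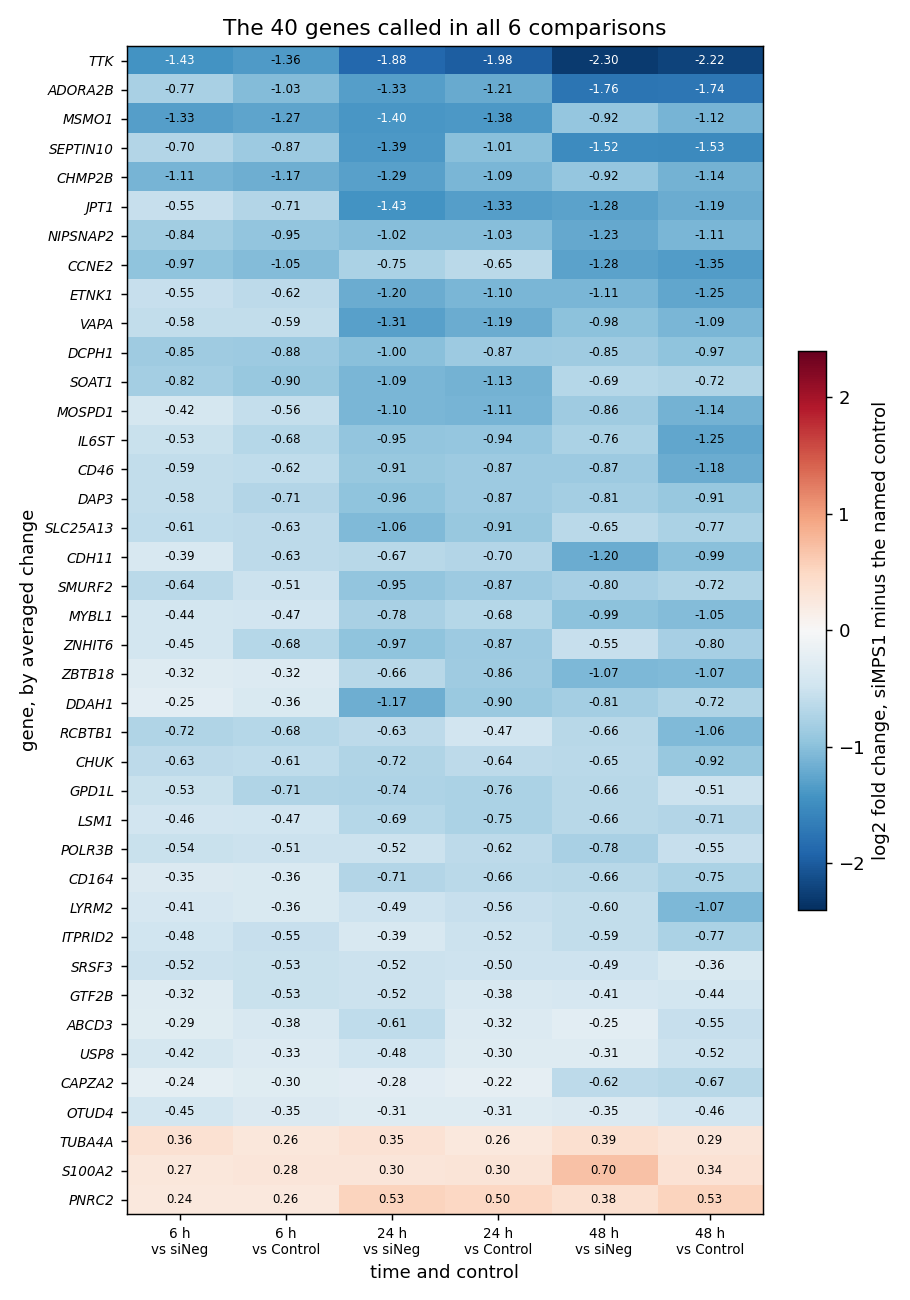
Differences of siMPS1 from siNeg and from Control at 6, 24 and 48 h (columns) for the 40 genes that held (rows), coloured on the log2(signal + 3) scale with lower in siMPS1 and higher in siMPS1 in opposite colours. TTK has the largest average fall, at -1.86, and the largest single rise is 0.70, for S100A2 against siNeg at 48 h.

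Other probe sets of the same genes gave a second reading that the choice of genes did not use, although they were hybridised with the same RNA. Of 19 such probe sets, belonging to 11 of the 40 genes, 18 had the same sign as the gene's chosen probe set and 17 were called in that direction in the average. No probe set was called in the opposite direction by limma (0 of 19). All 6 comparisons were called for 5 of them: both other probe sets of CHMP2B, at -0.77 and -0.84, both of SRSF3, at -0.68 and -0.71, and 1 of CD164, at -0.76. SEPTIN10 had a second probe set at -1.18, CCNE2 at -0.74 and ETNK1 at -0.64, and the 4 others of IL6ST lay between -0.45 and -0.54. The second probe set of CAPZA2 fell less, at -0.11 against -0.39 for the chosen one, and was called in 1 of the 6 comparisons. Those of CCNE2 and CDH11 (-0.43) were each called in 2 of the 6. OTUD4 had the exception in sign, a dim probe set at 0.16 (adjusted p = 0.453), and its remaining probe set read -0.09 (adjusted p = 0.739). The chosen probe sets of VAPA, CDH11 and LYRM2 carry the maker's mark for probes that may bind related transcripts.

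The size of the fall over time was tested for all genes with an F test of the differences between times. Of the 40 genes that held, 20 were called by it, against 28.8% (2253) of the genes tested, and 18 of those 20 were falls that were larger at 48 h than at 6 h. The 40 were chosen by comparisons from the same fit and arrays, so the count of 20 is a description and no even comparison with all genes. By the plain values, the largest fall lay at 48 h for 20 of the 37 genes, at 24 h for 16 and at 6 h for 1. ZBTB18 and MYBL1 widened over time: ZBTB18 differed by -0.32, -0.76 and -1.07, and MYBL1 by -0.45, -0.73 and -1.02. DDAH1, which degrades methylated arginines, differed by -0.31, -1.04 and -0.76. By contrast, GTF2B differed by -0.43, -0.45 and -0.42 and DCPH1 by -0.86, -0.93 and -0.91, with adjusted p-values of 0.98 and 0.95 for variation over time.

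Across the 18 arrays, the genes with values most like those of TTK were DCPH1 (Pearson r = 0.937), SOAT1 (0.926), JPT1 (0.923), POLR3B (0.923) and DAP3 (0.923). All 5 held, and the correlation is a description over arrays that share the same treatment and time groups. DCPH1 read 6.01 and 6.02 in siMPS1 cells at 6 h, against 6.79 and 6.94 in siNeg cells and 6.86 and 6.92 in Control cells. At 24 h, when TTK was also higher in all 3 treatments than at 6 h, DCPH1 read 7.01 and 6.39 in siMPS1 cells, against 7.77 and 7.62 in siNeg cells and 7.65 and 7.49 in Control cells.

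Many more genes changed on average than held. Averaged over the times against both controls, 1277 genes were higher (16.3%) and 1081 lower (13.8%) in siMPS1 cells, and the median of all genes was 0.02. After centring each array on its median, 37.7% of the calls were higher, against 54.2% as given here, so the balance of rises and falls rests on the scaling. Of the 1277 higher genes, 462 had a time at which the difference was below 0, and of the 1081 lower genes, 345 had a time at which it was above 0. All 6 comparisons had the direction of the average for 480 of the higher and 489 of the lower genes. The averages against the single controls were called in the same direction for 632 of the higher and 636 of the lower genes. An average fall of 1 or more in log2 units was found for 9 genes and such a rise for 0, and the single one that did not hold was HOXB3, named here after its value was seen. HOXB3, a dim homeobox gene, averaged -1.29 (SE 0.237), with -0.31 at 6 h. Without the 48 h arrays, 619 genes were higher and 670 lower on average, and with time and treatment as additive terms 514 were higher and 571 lower.

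The 48 h arrays gave the most calls. Against both controls, 573 genes were higher (7.32%) and 595 lower (7.6%) at 6 h, 523 higher (6.68%) and 613 lower (7.83%) at 24 h, and 1372 higher (17.5%) and 1129 lower (14.4%) at 48 h. Counts against the single controls differed most at 6 h, where 270 genes were higher and 333 lower than in siNeg cells, and 727 higher and 570 lower than in Control cells. The siNeg arrays themselves differed from Control on average in 208 genes higher and 180 lower. The 48 h siMPS1 arrays also stood apart in a measure of RNA quality: the 3′ minus 5′ difference of the actin control probe sets was 0.867 and 0.922 in siMPS1 cells at 48 h, and between 0.0968 and 0.244 in the 4 control arrays. The same measure for GAPDH was 0.286 and 0.298 in siMPS1 cells at 48 h, and between -0.031 and 0.081 in the controls. At 6 h the actin values of the siMPS1 arrays, 0.257 and 0.249, lay within the control range of 0.149 to 0.295, and at 24 h they were 0.426 and 0.427, above the control range of 0.285 to 0.412. The 18S ribosomal RNA probe set averaged 10.8 in siMPS1 cells at 48 h, against 9.49 in siNeg cells and 9.75 in Control cells. It also varied among the controls at 24 h (10.6 in siNeg, 9.93 in Control), when siMPS1 cells averaged 9.97. At 6 h the Alu control probe set averaged 12.96 in siMPS1 cells, against 12.48 in siNeg cells and 12.42 in Control cells. In the same order Alu averaged 12.77, 12.62 and 12.57 at 24 h, and 12.51, 12.44 and 12.41 at 48 h. The part of these measures in the results at the 3 times was not tested.

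Mitotic genes were called lower most often at 48 h. Over all genes tested, 13.8% were lower and 16.3% higher on average, and 7.6%, 7.83% and 14.4% were lower at 6, 24 and 48 h. In the list of 18 measured spindle checkpoint genes, which includes TTK, 9 were lower and 1 higher on average, with a median of -0.11. TTK, the silenced gene, is among the members counted lower on average and at each time. For the 21 kinetochore and centromere genes, 8 were lower and 0 higher (0 of 21 at limma's threshold), with a median of -0.12. For the 20 genes of anaphase and cytokinesis, 11 were lower and 1 higher, with a median of -0.14. The list of 24 mitotic kinases, cyclins and phosphatases had 9 lower and 5 higher (median -0.14), and the 26 spindle motors and assembly factors had 11 lower and 4 higher (median -0.04). In that order of naming, the 5 lists had 2, 0, 7, 4 and 6 members lower at 6 h, 2, 0, 1, 2 and 2 at 24 h, and 10, 11, 14, 13 and 11 at 48 h. Without the 48 h arrays, 2, 1, 4, 4 and 5 members were lower on average, in the same order. In that fit 670 of all 7828 genes tested were lower on average. PLK1 and AURKB belong both to the spindle checkpoint list and to the list of mitotic kinases, cyclins and phosphatases. The siMPS1 arrays at 48 h are those with actin 3′ minus 5′ differences of 0.867 and 0.922, and their part in these counts was not tested.

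CCNB2, the cyclin B2 that activates CDK1 at the entry into mitosis, was lower at 24 h as well as at 48 h. At 6 h it read 7.35 and 7.05 in siMPS1 cells, against 7.20 and 7.14 in siNeg cells and 7.44 and 7.48 in Control cells, where the groups overlapped. At 24 h it read 8.46 and 8.44 in siMPS1 cells, against 9.48 and 9.46 in siNeg cells and 9.45 and 9.53 in Control cells. At 48 h it read 8.15 and 8.22 in siMPS1 cells, against 9.62 and 9.57 in siNeg cells and 9.43 and 9.36 in Control cells. The difference was -0.11, -1.04 and -1.31 at the 3 times (F test, adjusted p = 7.42e-07). PLK1, a kinase of mitotic entry and spindle assembly, read 5.14 and 5.21 in siMPS1 cells at 48 h, against 7.03 and 6.90 in siNeg cells and 5.93 and 5.72 in Control cells, so that its fall at 48 h was larger against siNeg (-1.79) than against Control (-0.65). BUB3, a checkpoint protein at the kinetochore, was lower by 0.62 at 48 h and not called at 6 h (-0.14) or 24 h (-0.05). SPDL1, which brings dynein to kinetochores, was lower by 0.81 at 48 h, and CCNB1, the other B cyclin of mitosis, was lower at all 3 times, by 0.38, 0.19 and 0.69. At 48 h SPDL1 read 7.78 and 7.89 in siMPS1 cells, against 8.76 and 8.90 in siNeg cells and 8.41 and 8.51 in Control cells. OIP5, CENPN, ITGB3BP and MIS18A, which act at the centromere, differed by -0.91, -0.68, -0.74 and -0.62 at 48 h and by at most 0.17 at 6 or 24 h.

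Among motors and cytokinesis factors, KIF20A, PRC1 and KIF4A, which organise the midzone of the anaphase spindle, differed by -0.82, -0.67 and -0.48 at 48 h. For each of them the siNeg arrays lay above the Control arrays at 48 h, so the fall was smaller against Control. KIF20A read 6.97 and 7.18 in siMPS1 cells, against 8.20 and 8.21 in siNeg cells and 7.60 and 7.59 in Control cells. KIF4A read 7.91 and 7.83, against 8.56 and 8.64 in siNeg cells and 8.09 and 8.12 in Control cells. At 24 h PRC1 differed by 0.09 and was not called, and KIF4A was already lower by 0.39. KIF18A and the condensin subunit SMC2 differed by -0.92 and -1.09 at 48 h. ECT2, which activates the contractile ring, was lower at 6 h by 0.50 and at 48 h by 0.33. TOP2A and BIRC5 averaged -0.27 and -0.29 with no call for variation over time. CDC25B, a phosphatase that activates CDK1, was higher and averaged 0.39, with 6.97 and 6.98 in siMPS1 cells at 6 h, against 6.38 and 6.55 in siNeg cells and 6.34 and 6.24 in Control cells.

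The promoters of CCNB2 and PLK1 are printed as examples of late cell cycle promoters whose genes were lower at 48 h, at chr15:59104896-59105195 and chr16:23678639-23678938 (both plus strand, GRCh38.p14, RefSeq). The windows and capitals are as for JPT1 above.
CCNB2: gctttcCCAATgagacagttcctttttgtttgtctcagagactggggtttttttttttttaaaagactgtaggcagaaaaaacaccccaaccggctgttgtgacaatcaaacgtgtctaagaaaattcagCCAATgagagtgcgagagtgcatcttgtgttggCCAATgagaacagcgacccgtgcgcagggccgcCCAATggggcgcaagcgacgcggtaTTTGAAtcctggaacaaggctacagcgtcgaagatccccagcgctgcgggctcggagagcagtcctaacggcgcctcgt
PLK1: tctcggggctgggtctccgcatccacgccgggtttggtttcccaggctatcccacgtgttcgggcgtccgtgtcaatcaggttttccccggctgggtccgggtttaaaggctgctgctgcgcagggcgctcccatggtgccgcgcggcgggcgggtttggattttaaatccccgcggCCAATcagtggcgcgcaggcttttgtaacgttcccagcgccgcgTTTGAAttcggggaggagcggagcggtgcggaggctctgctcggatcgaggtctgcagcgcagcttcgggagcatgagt
In both, the CHR letters began 29 bases before the start. The CCNB2 window held 4 CCAAT matches and the PLK1 window 1. Of the 94 members of the 5 mitotic lists with a promoter in the RefSeq table, 58.5% held the CHR letters and 68.1% CCAAT, and of the 50 that were lower at 48 h, 66.0% and 82.0% did. Of the 31 matched promoters of the genes that fell in all 6 comparisons, 12.9% held the CHR letters and 45.2% CCAAT, beside 11.2% and 38.0% of the promoters of all genes tested (6545 matched) and 16.6% and 35.7% of all 27305 windows in the table. The E2F letters TTTCCCGC or TTTGGCGC were in 6.45% of the 31, 9.57% of the 94 and 3.96% of the genes tested. A match is a description of letters in a window, searched on both strands.

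**Figure D4:**
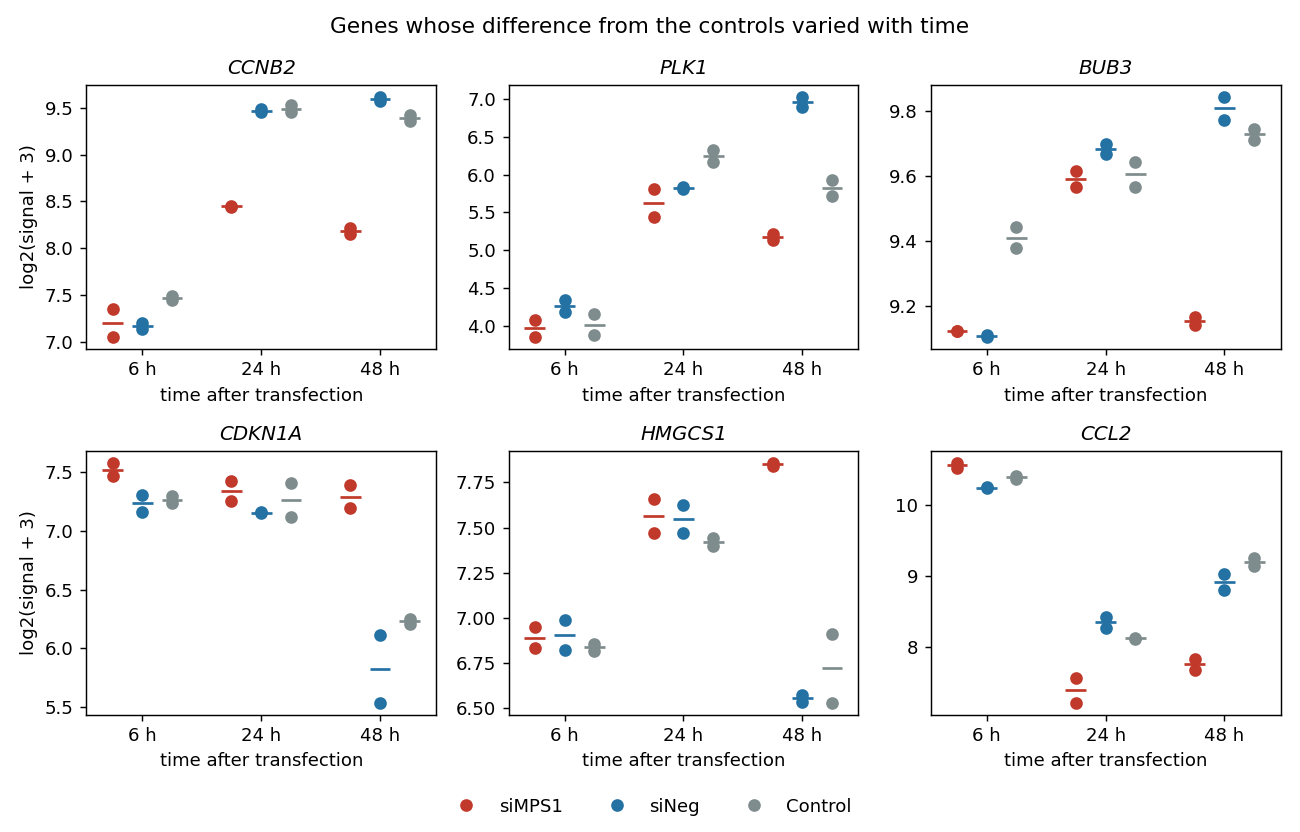
Values of CCNB2, PLK1, BUB3, CDKN1A, HMGCS1 and CCL2 as log2(signal + 3) against time in h, with 1 point per array and a line at each mean. At 6 h 1 siMPS1 point of CCNB2 (7.35) lies among the control points and the other (7.05) just below them. At 48 h all siMPS1 points are below (CCNB2, PLK1, BUB3, CCL2) or above (CDKN1A, HMGCS1) the control points.

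Of 40 measured genes of replication and the start of S phase, 12 were higher and 7 lower on average, with a median of 0.05, where 16.3% of all genes were higher and 13.8% lower. By time, 15 were higher and 2 lower at 24 h, and 6 higher and 12 lower at 48 h. Of all genes, 6.68% were higher and 7.83% lower at 24 h, and 17.5% higher and 14.4% lower at 48 h. After median centring the averaged counts turned to 6 higher and 10 lower. CCNE2 fell as given above, and the clamp loader subunits RFC3 and RFC5 averaged -0.47 and -0.39. CCND1, the cyclin D1 of the G1 phase, averaged 0.23 and read 10.43 and 10.49 in siMPS1 cells at 48 h, against 10.11 and 10.05 in siNeg cells and 10.09 and 10.10 in Control cells. Of the 17 p53 targets and CDK inhibitors, 4 were higher and 3 lower, which became 2 and 4 after median centring. CDKN1A, the CDK inhibitor p21, read 7.19 and 7.39 in siMPS1 cells at 48 h, against 6.12 and 5.54 in siNeg cells and 6.25 and 6.21 in Control cells, a rise of 1.26. It differed by 0.27 and 0.13 at 6 and 24 h and was not called there. XPC averaged 0.37, and ZMAT3 and PLK2 averaged -0.40 and -0.12.

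Of 17 sterol genes measured, 1 was higher and 2 lower on average, MSMO1 included, where 16.3% of all genes were higher and 13.8% lower. By time, 0 were higher and 5 lower at 24 h by limma's test, 4 were higher and 1 lower at 48 h, and the F test called 8. The shares over all genes were 6.68% higher and 7.83% lower at 24 h, 17.5% and 14.4% at 48 h, and 28.8% by the F test. Without the 48 h arrays 5 were lower and 1 higher on average, where 670 of all 7828 genes were lower and 619 higher. HMGCS1, which makes the precursor of mevalonate, read 7.86 and 7.84 in siMPS1 cells at 48 h, against 6.57 and 6.53 in siNeg cells and 6.53 and 6.91 in Control cells, a rise of 1.22, and differed by 0.02 and 0.08 at 6 and 24 h. SC5D, a desaturase of late sterol synthesis, averaged -0.23, and EBP averaged 0.10 (adjusted p = 0.073). For the 31 vesicle traffic and ESCRT genes, 8 were higher and 8 lower, which became 5 and 9 after median centring and 1 and 7 without the 48 h arrays. Beside VAPA and CHMP2B, SEC22B averaged -0.46 and the ESCRT-III protein CHMP5 averaged -0.26. Of the 34 genes of translocation into the endoplasmic reticulum and its stress response, 11 were higher and 8 lower on average, with 2 higher and 8 lower at 24 h and 18 higher and 6 lower at 48 h. Without the 48 h arrays the averaged counts were 3 and 6, and after median centring 8 and 9. SSR3, a subunit beside the translocation channel, read 6.01 and 6.04 in siMPS1 cells at 24 h, against 7.66 and 7.61 in siNeg cells and 7.24 and 7.29 in Control cells, and averaged -0.92. SSR4, of the same complex, averaged 0.23. PSAT1, an enzyme of serine synthesis, averaged -0.91, and the signal peptidase subunit SPCS3 averaged 0.23.

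**Figure D5:**
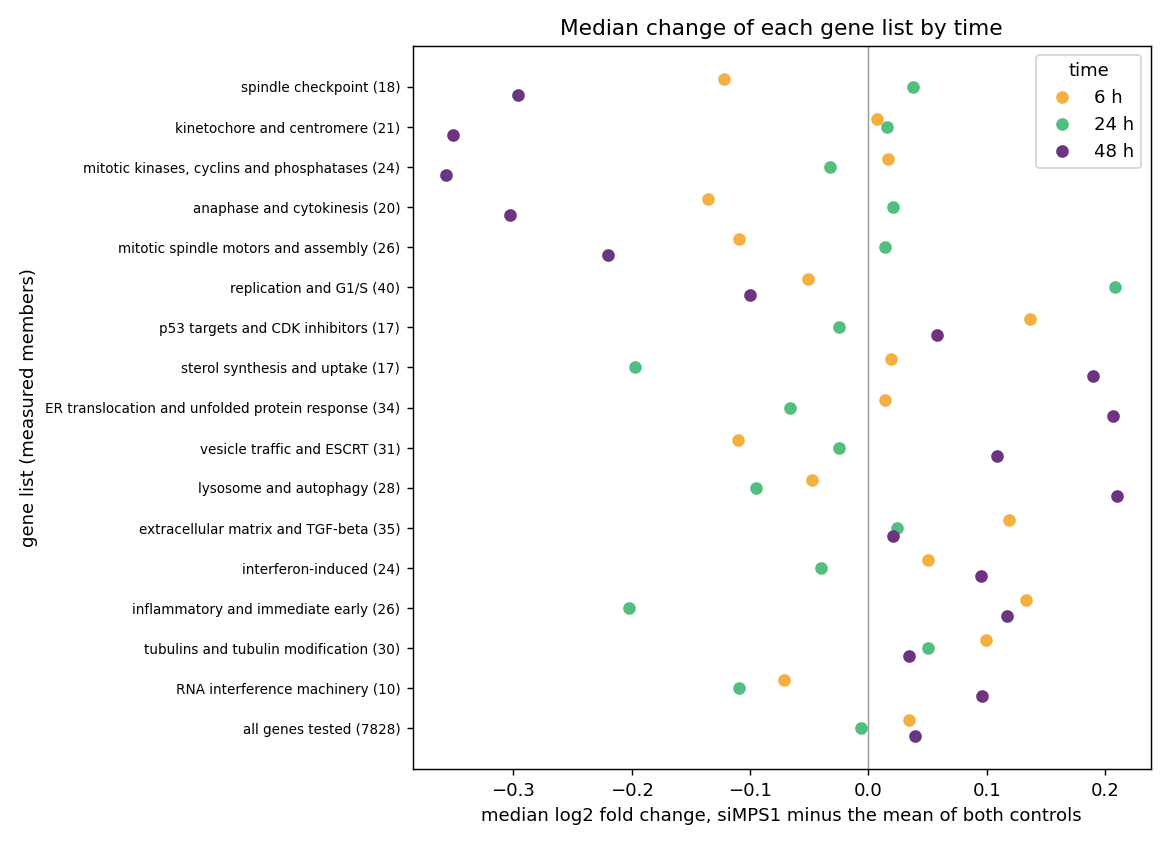
Median difference of siMPS1 from both controls, in log2(signal + 3), for each gene list and for all genes tested, at 6, 24 and 48 h. The 5 mitotic lists lie between -0.36 and -0.22 at 48 h, while the median of all genes is 0.04.

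In the list of extracellular matrix and TGF-beta genes, 14 of 35 were higher and 7 lower, with a median of 0.12, where 16.3% of all genes were higher and 13.8% lower. COL5A1, a collagen chain, averaged 0.48, LAMC1, a laminin chain, averaged 0.35, and SPARC, a matrix glycoprotein, averaged 0.32. At 48 h COL5A1 read 7.46 and 7.33 in siMPS1 cells, against 7.51 and 7.28 in siNeg cells and 6.53 and 6.68 in Control cells. Its siMPS1 arrays thus lay among the siNeg arrays at that time and above the Control arrays alone, whereas LAMC1 and SPARC lay above both controls. TGFBR2, the type II TGF-beta receptor, read 8.37 and 8.42 in siMPS1 cells at 24 h, against 7.71 and 7.71 in siNeg cells and 7.74 and 7.74 in Control cells, and differed by 0.03 at 6 h. Its rises of 0.67 at 24 h and 0.52 at 48 h were both called. Of 30 tubulin and tubulin modification genes, 10 were higher and 3 lower; the median of 0.03 turned to -0.01 after quantile normalization or median centring. MAP4 and MAP1B, which bind microtubules, averaged 0.30 and 0.27.

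CCL2, a chemokine for monocytes, read 7.69 and 7.84 in siMPS1 cells at 48 h, against 9.03 and 8.81 in siNeg cells and 9.13 and 9.26 in Control cells. It differed by -0.84 at 24 h and -1.29 at 48 h, and by 0.24 at 6 h without a call. CXCL8, the chemokine interleukin-8, averaged 0.36. Among 26 inflammatory and immediate early genes, 5 were higher and 4 lower (4 and 5 after median centring), where 16.3% of all genes were higher and 13.8% lower, and DUSP1 and IER3 averaged 0.24 and 0.17. Of 24 interferon-induced genes, 4 were higher and 2 lower, near or below those shares: IFI44 and IFI16 averaged 0.39 and 0.20, IFI6 averaged -0.33, and IFI27 averaged 0.16. At 48 h, IFI27 read 7.30 and 7.28 in siMPS1 cells, against 6.27 and 6.16 in siNeg cells and 7.61 and 7.56 in Control cells, so the siMPS1 arrays lay between the controls, and the average against Control alone was -0.05.

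Lysosome and autophagy genes numbered 3 higher and 5 lower of 28 on average, where 16.3% of all genes were higher and 13.8% lower. By time, 0 were higher and 7 lower at 24 h by limma's test, and 11 were higher and 3 lower at 48 h. Over all genes the shares were 6.68% higher and 7.83% lower at 24 h, and 17.5% and 14.4% at 48 h. NPC2, a cholesterol transfer protein of the lysosome, read 9.10 and 9.07 in siMPS1 cells at 24 h, against 9.87 and 9.88 in siNeg cells and 9.80 and 9.89 in Control cells. It differed by 0.16 at 6 h, -0.78 at 24 h and -0.66 at 48 h, each called, so its direction at 6 h was opposite. ATG12 averaged -0.29, NEU1 -0.23 and LAMP1 0.19. In the RNA interference machinery, 1 of 10 genes was lower and 0 higher at limma's threshold. That gene was DICER1, the enzyme that processes small RNA precursors, which averaged -0.52. At 6 h it read 7.27 and 7.43 in siMPS1 cells, against 8.08 and 8.07 in siNeg cells and 7.55 and 7.45 in Control cells. TSN, TSNAX and PRKRA averaged -0.09, -0.12 and -0.08 and were not called.

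The genes called by the F test whose difference moved most between 6 h and 48 h were 5 in each direction. DDA1, a subunit of a ubiquitin ligase, differed by 0.41 at 6 h, -0.78 at 24 h and -1.76 at 48 h. At 48 h DDA1 read 5.07 and 5.01 in siMPS1 cells, against 7.02 and 7.14 in siNeg cells and 6.59 and 6.46 in Control cells. MMP3, a secreted protease, went the other way, with -0.51 at 6 h and 1.26 at 48 h, when it read 5.95 and 5.88 in siMPS1 cells, against 4.28 and 4.41 in siNeg cells and 4.60 and 5.31 in Control cells. PCCA, DLG3, CLCN4 and SLC8B1 were more positive, and PTMS, MISP, ZNF235 and MDM4 more negative, at 48 h than at 6 h. These 8 genes read between 1.75 (MDM4) and 5.28 (MISP) in all arrays and were not called in the average (adjusted p from 0.154 for MDM4 to 0.928 for SLC8B1).

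The cells carried the markers VIM, NES, CD44, SOX2 and SOX9 above the array median in all 18 arrays. GFAP was above it in 3 arrays and S100B in 0. Of the markers of other cell types, 0 of 5 of microglia and blood, 0 of 3 of endothelium and 0 of 3 of fibroblasts were above it in all arrays, although COL1A1 was in 8. Of 4 epithelial markers KRT18 alone was, and it averaged 0.18 higher in siMPS1 cells (adjusted p = 0.000829). Of 4 neuronal markers GAD1 alone was, at -0.03. The log2 of the summed signals of the glial list ranged from 12.7 to 13.2 in siMPS1 arrays and from 12.6 to 13.0 in control arrays, and that of the epithelial list from 9.44 to 9.93 in siMPS1 arrays and from 9.16 to 9.77 in control arrays. These sums mainly follow the brightest members and are no reading of the whole lists. In siMPS1 arrays VIM averaged 11.98 and CD44 11.56, and KRT18 averaged 9.66 beside 2.74 for EPCAM, 2.46 for CDH1 and 2.29 for KRT5.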

How the data were processed

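The values used are the deposited table of the series, named by GEO's platform annotation. MAS5 produced them, per the submitters' processing notes, and the deposited values were read as log2 signals: 2 raised to them gave a 2% trimmed mean between 100.122 and 100.134 in each array, and 9.38% lay below 0. The log base comes from this match alone, and the scanner files and any date or batch were not used here. Array medians lay between 4.30 and 4.56, and replicate arrays correlated at 0.983 to 0.990 after the steps below. The number of arrays limits the precision.

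Of 22277 probe sets, 62 were array controls, 19064 named exactly 1 gene, 1043 several and 2108 none. Identifiers of 19052 matched RefSeq (GRCh38.p14). The values used are log2(signal + 3), so the pseudocount is 3. Probe sets in the lowest 40% by mean were dropped, and each gene was represented by its brightest remaining probe set, which left 7828 genes. limma 3.58.1 in R 4.3.3 fitted the means of the 9 groups over all 18 arrays (9 residual degrees of freedom, prior 8.57, intensity trend). Tests were two-sided, with Benjamini-Hochberg adjustment over all genes in each contrast, and the F test covered the differences between times. The averaged contrast of this fit was tested on simulated data, with a constant shift in the siMPS1 arrays and independent noise. The rule for genes that hold and the F test over times were not simulated.

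Genes named are TTK, the 15 largest falls and rises that hold, the 5 largest changes each way between 6 and 48 h among F-test calls, the 4 members with the smallest p of each of 16 gene lists, and the 5 genes most like TTK. The other genes that hold, the threshold neighbours and HOXB3 were added after their values were seen. Members and lists were chosen with earlier results of these data known, so list counts are descriptions. Alternatives changed the pseudocount, filter, scaling, probe set rule, controls, times, trend, threshold and replicates.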

Additional observations from a re-analysis of the deposited data

Results flagged for a closer look

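Of 106 genes named or held, 74 had differences between siMPS1 and both controls that were not equal over the times by the F test at an adjusted p under 0.05, where 28.8% of all genes were called. Each is given with the largest of its differences between a later and an earlier time, in log2(signal + 3), negative where siMPS1 was lower relative to the controls at the later time. The later time was more negative for 49 genes and more positive for 25. Some of the 106 genes were named because this F test called them, and others were chosen by other tests on the same arrays. The count of 74 is therefore a description and no even comparison with the 28.8% of all genes.

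Between 6 and 48 h the change was negative for PTMS (-2.17), DDA1 (-2.17), MISP (-1.89), ZNF235 (-1.86), MDM4 (-1.74), CCL2 (-1.53) and IFI6 (-0.56). Among mitotic genes it was negative for CCNB2 (-1.19), PLK1 (-1.05), OIP5 (-0.92), SMC2 (-0.87), KIF20A (-0.81), ITGB3BP (-0.78), CENPN (-0.70), MIS18A (-0.61) and KIF4A (-0.50). TTK itself (-0.86) and other genes lower in all 6 comparisons followed, with ADORA2B (-0.85), ZBTB18 (-0.75), SEPTIN10 (-0.74), ETNK1 (-0.59), CDH11 (-0.59), MYBL1 (-0.57), LYRM2 (-0.45), CD46 (-0.42), IL6ST (-0.40) and CD164 (-0.35), and the clamp loader gene RFC5 stood at -0.44. The change over the same interval was positive for PCCA (1.95), DLG3 (1.83), CLCN4 (1.80), MMP3 (1.77), SLC8B1 (1.76), HMGCS1 (1.20), TSNAX (0.58), MAP4 (0.55), SPCS3 (0.30) and S100A2 (0.25). Dim genes are among the largest of these changes. PTMS, MISP, ZNF235, MDM4, PCCA, DLG3, CLCN4 and SLC8B1 read between 1.75 (MDM4) and 5.28 (MISP) in all arrays. Replicates of such genes could lie far apart, as for MISP in siMPS1 cells at 24 h, at 3.52 and 5.12.

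Between 6 and 24 h the change was negative for SSR3 (-1.09), NPC2 (-0.93), ZMAT3 (-0.89), JPT1 (-0.75), DDAH1 (-0.73), VAPA (-0.66), MOSPD1 (-0.61), CDC25B (-0.52), ATG12 (-0.42) and DAP3 (-0.27). It was positive for TGFBR2 (0.64), IFI16 (0.58), IFI44 (0.55), ECT2 (0.52), COL5A1 (0.43), LAMC1 (0.41), SPARC (0.37) and TSN (0.35).

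Between 24 and 48 h the change was negative for PSAT1 (-0.99), SPDL1 (-0.86), PRC1 (-0.76), KIF18A (-0.64), RFC3 (-0.63), CCNE2 (-0.61), BUB3 (-0.56), PRKRA (-0.55), CCNB1 (-0.50), CAPZA2 (-0.40) and CHMP5 (-0.31). It was positive for CDKN1A (1.13), NEU1 (0.53), IFI27 (0.47), DUSP1 (0.39), MSMO1 (0.37), IER3 (0.35) and CCND1 (0.29).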

How the results depend on the processing

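TTK stayed lower and called under every alternative run, between -2.10 and -1.57. The average counts, 1277 higher and 1081 lower, became 514 and 571 with additive terms, 619 and 670 without 48 h, 720 and 692 at an adjusted p under 0.01, and 825 higher after median centring. The 3 genes higher in all 6 comparisons became 0 after median centring, without the intensity trend and at 0.01, 5 with the lowest 60% of probe sets left out or probe sets averaged, and 0 to 4 when 1 array was left out. The 37 lower became 19 to 38 when 1 array was left out and 21 at 0.01, and 14 of the 40 held in all 18 such repeats. With fewer comparisons to pass, the higher and lower counts were 12 and 56 with siNeg as the only control, 15 and 83 with Control, 56 and 121 without 6 h, 22 and 59 without 24 h, and 11 and 56 without 48 h. The 2253 genes varying with time became 1166 at 0.01. Among named genes, 2 turned sign: ITGB3BP was 0.0381 without 48 h and IFI27 -0.0469 against Control alone. The median of all genes moved from 0.02 to -0.02 after median centring. Replicate numbers did not pair the arrays: over 36 pairs of groups the deviations correlated from -0.136 to 0.103, 1 above 0.1, and with the replicate block 1291 genes were higher and 1094 lower on average, 2 and 35 held, and 2238 varied with time. Dim genes near the background limit what the arrays can show.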

Other observations

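Probe sets that name several genes or none were left out of the gene counts. Of 1505 such probe sets that passed the same filter, 2 were lower in all 6 comparisons and 0 were higher by limma's test. One averaged -0.83 and differed by -0.95, -0.87 and -0.66 at 6, 24 and 48 h, and the other averaged -0.45 and differed by -0.34, -0.43 and -0.58. Both are without a gene name here and were picked out by that count.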
